A study of Mus musculus with 3 samples.

Results

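The intervals described here are stretches of the mouse genome that were listed as marked by GFI1 and that lay far from any interval listed for GFI1B. They were chosen by the positions in both lists themselves. Of the 7166 distinct GFI1 intervals, the members were those whose nearest GFI1B interval on the same chromosome was more than 5000 bp away, edge to edge, which left 3995 (55.7%). A further 2808 GFI1 intervals (39.2%) overlapped a GFI1B interval, and 363 (5.07%) lay without overlap at up to that distance. Applied the other way, the same rule kept 4385 of 7595 GFI1B intervals (57.7%). All these counts follow from the rule and are a description.

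The marks were mapped by DamID, in which a bacterial DNA adenine methyltransferase (DAM), fused to a protein, methylates GATC sites near where that protein sits. AinV18 mouse embryonic stem cells carried GFI1:DAM, GFI1B:DAM or DAM alone as a control, each behind a doxycycline-inducible promoter at the Hprt locus. Embryoid bodies of day 3.25 gave FLK1+ cells, and after 2 days of culture the haemogenic endothelium was sorted by TIE-2 and c-KIT. Each of the 3 groups was 1 sample, said in the labels to hold 2 biological replicates together. Both fusions were introduced copies read from the Hprt locus rather than the proteins' own genes, so the lists concern marks in cells with the introduced protein. Whether control reads were taken off for the GFI1 list was not given in the sources used here. The doxycycline dose, and whether each line was 1 clone, was not given in the sources used here. The values of the DAM control were not analysed here, and the lists hold no expression values against which the sorted cell type could be checked.

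GFI1 and GFI1B are closely related zinc finger repressors that share a DNA-binding core motif and recruit the histone demethylase LSD1 (gene Kdm1a) with CoREST proteins through their SNAG domain. Both are induced in haemogenic endothelium, the endothelium from which the first blood cells bud. There they help to switch off the endothelial programme as round blood cells emerge.

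Absence of an interval from a list does not show that the protein was absent there. An interval counts as GFI1-only when the GFI1B list holds nothing near it. That depends on how deeply each sample was sequenced and where each list was ended. The deposited lists give no depth, and they give the threshold that ended the list for GFI1B but not for GFI1. Without separate replicates no value below has an SD, and no test was made between groups of intervals.

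MicroRNA genes among the members can be read as sequence, because the RNA itself is short. Of the 82 genes of the miRNA biotype listed for GFI1, 52 (63.4%) had at least 1 GFI1-only interval, beside 64.7% of all genes listed for GFI1. Of the 52, 42 were not in the GFI1B list. RefSeq (GRCm38.p6) held mature sequences for 12 of these genes, 21 sequences in all, and no 2 of them had the same seed. The 6 below stand for the genes with the clearest names and were picked after their values had been seen. They are written 5′ to 3′ with the seed, bases 2 to 8, in capitals.
mmu-miR-216b-5p: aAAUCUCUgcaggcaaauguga
mmu-miR-193b-3p: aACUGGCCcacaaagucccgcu
mmu-miR-99b-5p: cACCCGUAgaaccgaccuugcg
mmu-miR-30c-5p: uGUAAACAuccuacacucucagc
mmu-miR-7b-5p: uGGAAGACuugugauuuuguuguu
mmu-miR-465a-5p: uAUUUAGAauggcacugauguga

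The strongest of these genes was Mir216b, with 174 reads per kb over 1 interval of 801 bp at chr11:28623213-28624013 (mm9), 17.3 kb from the nearest GFI1B interval. Reads per kb is the authors' value for a gene, its read number divided by the summed length of its intervals. Mir193b followed with 79.9 reads per kb over 651 bp at chr16:13448955-13449605, 24.5 kb from GFI1B. Mir465, of a microRNA cluster on chromosome X, had 66.3 reads per kb and lay 924 kb from a GFI1B interval. Lower values were listed for Mir99b (59.0), Mir30c-2 (43.1) and Mir7b (40.8). Mir30b, a sister of miR-30c, was listed at 157 reads per kb. The higher ranks of the biotype were held mostly by predicted genes known only by clone names, led by AC115802.1 at 205 reads per kb.

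Protein-coding members are illustrated by 3 regulators for which every GFI1 interval was GFI1-only and which the GFI1B list did not hold. Rcor1 encodes CoREST, the partner of LSD1. Smad3 carries TGF-beta signals to the nucleus, and Prox1 is the homeobox factor of lymphatic endothelium. Their upstream 250 bases (RefSeq, GRCm38.p6, 5′ to 3′ on the gene's strand, ending at the start site) are given with each GATC, the site that DAM methylates, in capitals. The 3 were picked after their values had been seen, and for Prox1 the first of its 2 promoters in the table is shown. They lie at chr12:111039117-111039366 on the plus strand, chr9:63757995-63758244 on the minus strand and chr1:190170828-190171077 on the minus strand.
Rcor1: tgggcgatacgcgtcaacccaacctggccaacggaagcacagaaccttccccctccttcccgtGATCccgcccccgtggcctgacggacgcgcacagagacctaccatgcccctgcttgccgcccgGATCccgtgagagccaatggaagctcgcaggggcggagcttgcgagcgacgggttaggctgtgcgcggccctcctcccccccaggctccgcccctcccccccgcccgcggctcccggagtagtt
Smad3: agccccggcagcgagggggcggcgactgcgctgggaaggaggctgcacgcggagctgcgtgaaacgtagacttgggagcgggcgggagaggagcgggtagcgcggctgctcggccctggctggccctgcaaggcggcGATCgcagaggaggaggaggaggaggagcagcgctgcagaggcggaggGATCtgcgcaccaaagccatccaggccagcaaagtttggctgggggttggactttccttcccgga
Prox1: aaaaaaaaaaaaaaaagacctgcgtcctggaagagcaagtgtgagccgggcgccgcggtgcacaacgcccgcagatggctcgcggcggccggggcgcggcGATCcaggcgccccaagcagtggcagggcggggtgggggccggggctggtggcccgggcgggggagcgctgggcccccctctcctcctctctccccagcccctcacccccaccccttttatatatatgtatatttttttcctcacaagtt

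Rcor1 and Smad3 each hold 2 GATC sites in this window and Prox1 holds 1. Whether the GFI1 intervals cover these windows is not known, because the intervals are in mm9 and no position was carried between builds. GATC was searched on both strands, where it reads the same, and so was AAATCA, the core of the motif known for both proteins. The letters of these 2 motifs cannot overlap each other. GATC occurred in 39.9% of the 1730 promoters of genes whose intervals were all GFI1-only, in 38.4% of the 1031 promoters of genes whose intervals all overlapped GFI1B, and in 42.0% of all 27025 promoters of the table. AAATCA occurred in 11.4%, 9.31% and 12.7% of them. The GC content of the same promoters was 58.0%, 59.3% and 53.0%. These shares describe the letters of promoters and not the marked intervals, whose own sequence was not read here.

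The GFI1-only intervals lay a median of 71.3 kb from the nearest GFI1B interval, with quartiles of 25.5 and 210 kb. Of the 3995, 329 (8.24%) lay at up to 10 kb and 136 (3.40%) at more than 1000 kb. Just inside the threshold were intervals of Etl4 at 5004 bp, Usp33 at 5017 bp and Hibadh at 5041 bp. Just outside it were intervals of Cltc at 4960 bp, Magi3 at 4917 bp and Rnf130 at 4910 bp. In all 6 of these the nearest GFI1B interval belonged to the same gene.

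**Figure D1:**
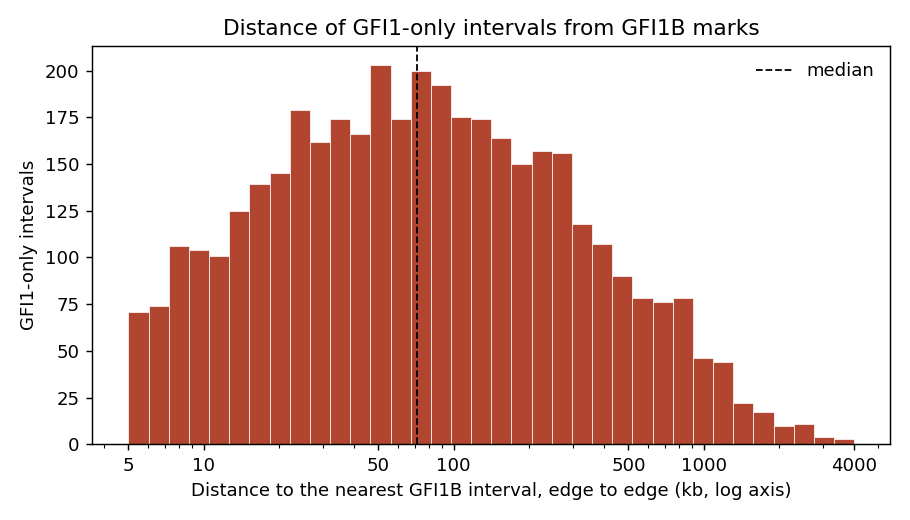
Number of GFI1-only intervals (vertical axis) by distance to the nearest GFI1B interval in kb (horizontal log axis), for all 3995 intervals. The dashed line marks the median of 71.3 kb, and the left edge is set by the rule at 5 kb.

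The most distant member belonged to Zbbx, a zinc finger B-box gene on chromosome 3, which held 2 intervals 3939 and 3888.7 kb from the nearest GFI1B interval, which was that of Rapgef2. Fstl5, which encodes a secreted follistatin-like protein, lay 2695.5 kb from its nearest GFI1B interval, again that of Rapgef2. On chromosome 3 too, Bche, the gene of butyrylcholinesterase, had 2 intervals 2905.2 and 2850.5 kb from GFI1B. On chromosome 8, Cdh8, a neuronal cadherin, shared an interval with Gm15680 at 3278.7 kb. Ncam2, a neural cell adhesion molecule on chromosome 16, was 3011.3 kb away and at 134 reads per kb was the strongest gene among the 10 most distant intervals. The others there were listed at between 16.5 and 73.7 reads per kb.

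The members belonged to 3391 of the 5238 genes listed for GFI1 (64.7%). Most of these genes, 2845, had 1 GFI1-only interval, and 119 had at least 3. Of the 3391, 2235 (65.9%) were not in the GFI1B list at all and 1156 (34.1%) were. In 2738 genes every GFI1 interval was GFI1-only, and 653 genes held GFI1-only intervals beside others. A gene with more intervals had more chances to hold a member, so shares of intervals are given below where groups of genes are described.

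Among genes with only GFI1-only intervals and no entry for GFI1B, the highest reads per kb belonged to Epc1, a subunit of the NuA4 histone acetyltransferase complex. Its interval of 751 bp at chr18:6427624-6428374 had 292 reads per kb and lay 877 kb from GFI1B. Atp5f1, a subunit of the mitochondrial ATP synthase, had 280 reads per kb over 1251 bp, 23.1 kb from GFI1B. Pcgf3, a subunit of a variant Polycomb repressive complex, had 253 and Nebl, the actin-binding protein nebulette, had 233. Slc39a12, a zinc transporter, had 223. The rest of the first 10 were Gm6327 (215), Gdpd4 (211), AC115802.1 (205), Gm12054 (200) and Smap1 (194). Each of the 10 was marked by 1 interval, and they include chromatin genes, transporters and unnamed models with no shared theme tested.

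Higher still, but present in the GFI1B list too, were Zfml and Chn1. Zfml, a zinc finger matrin-like gene, had 382 reads per kb for GFI1, the highest of all genes with 1 interval. Its GFI1B interval, at 56.8 reads per kb in that list, was 78.7 kb away. Chn1, the Rac-regulating protein chimerin, had 300 reads per kb for GFI1 and GFI1B intervals 73.8 kb away. Reads per kb were not scaled to library size, so values of the GFI1 and GFI1B lists stand side by side without a comparison of strength.

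The genes with the most members are counted by the intervals that the authors assigned to them. Whether these intervals lie inside the gene was not checked. Gm20388, a long gene model, held 12 GFI1-only intervals among 20. Fgfr2, a fibroblast growth factor receptor, held 6 of 13, and Rere, a nuclear receptor corepressor, 6 of 13. The intervals assigned to Gm20388 were spread from chr8:122482229 to chr8:126676179 (mm9). Those assigned to Fgfr2 were spread from chr7:137433596 to chr7:140158946. For both genes, some of the intervals were assigned to another gene too. Jarid2, a cofactor of Polycomb complex PRC2, held 6 of 9. Cdh2, which encodes N-cadherin, held 6 of 8. Amot, the angiomotin gene on chromosome X, also held 6 of 8 and comes after these only by its reads per kb. All 6 were in the GFI1B list, with between 2 (Cdh2 and Amot) and 19 (Gm20388) intervals of their own.

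GFI1-only intervals had a lower median width than those that overlapped GFI1B. It was 1101 bp against 1401 bp, and 69 (1.73%) of the members were 3 kb or wider against 199 (7.09%). From the narrowest to the widest of 5 width bins of all GFI1 intervals, 67.9%, 60.0%, 53.6%, 53.5% and 40.5% were GFI1-only. A wide interval is nearer to its neighbours by its width alone and has more bases with which to touch another, and the part of this in the trend was not tested. Among the 10 widest members was an interval of a U2 spliceosomal RNA gene on chromosome X at 4651 bp. Others were those of Arhgdia (4601 bp), the cell cycle phosphatase Cdc25a (4451 bp), Adam6b (4401 bp) and the nuclear transport GTPase Ran (4351 bp).

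Strength differed less. For the 2393 genes whose single interval was GFI1-only the median was 47.1 reads per kb, and for the 1398 genes whose single interval overlapped GFI1B it was 51.3. The quartiles were 36.6 and 66.2 for the former and 41.1 and 70.9 for the latter, so the values overlapped widely. Over 10 bins of single-interval genes by strength, the lowest, at 12.7 to 30.8 reads per kb, was GFI1-only in 72.5% of genes. The share was 68.7% in the next bin, 63.4% in the third, and between 54.6% and 59.7% in the rest. Intervals assigned to more than 1 gene made up 2.93% of the members, 4.95% of overlapping GFI1 intervals and 5.13% of the GFI1B-only intervals.

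**Figure D2:**
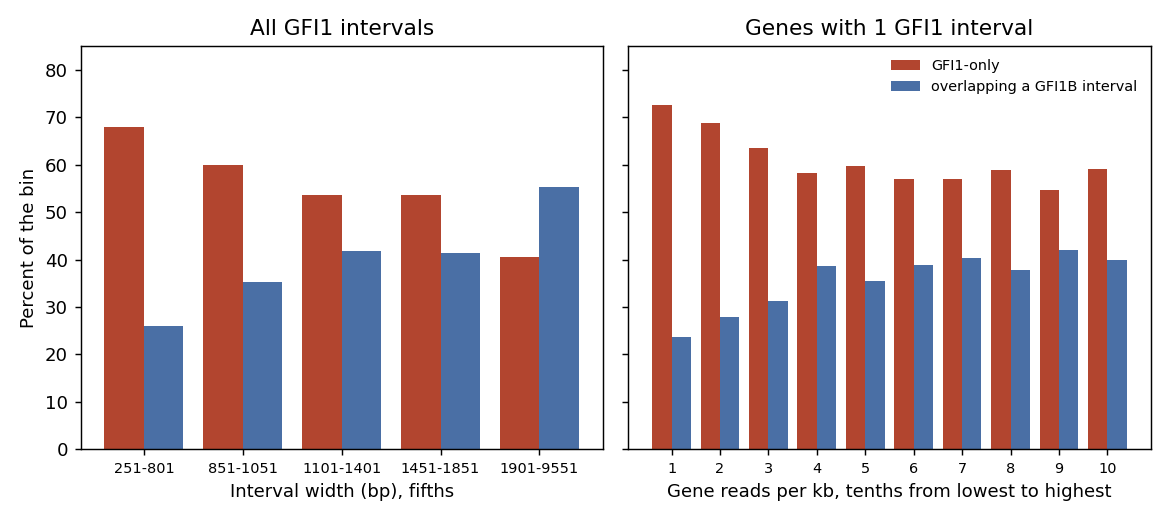
Percent of intervals that were GFI1-only (red bars) or overlapped a GFI1B interval (blue bars), by 5 bins of interval width in bp (left, all GFI1 intervals) and by 10 bins of reads per kb (right, genes with 1 GFI1 interval). The red share falls from 67.9% to 40.5% with width, and with strength it falls over the first 3 bins from 72.5% and then lies between 54.6% and 59.7%.

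By biotype, genes with a GFI1-only interval were protein-coding in 79.4% of cases, pseudogenes in 6.66% and lincRNA genes in 5.37%. Genes with an overlapping interval were protein-coding in 83.0%, pseudogenes in 3.71% and lincRNA genes in 5.95%. Over all genes listed for GFI1 the shares were 79.5%, 6.01% and 5.78%, close to those of the members. The pseudogene share was 3.60% among genes with a GFI1B-only interval. Of the 342 intervals assigned to pseudogenes in the GFI1 list, 243 (71.1%) were GFI1-only. The share was 54.4% for protein-coding genes (3313 of 6085), 52.4% for lincRNA (207 of 395), 65.2% for snoRNA (58 of 89), 60.5% for snRNA (69 of 114) and 56.4% for miRNA (53 of 94). Pseudogenes and small RNA genes have near-identical copies elsewhere in the genome, and how reads that match several copies were placed was not given in the sources used here. Their values are uncertain for that reason.

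Chemosensory receptors of the nose, which are not known as part of blood or endothelium, were the symbol families of more than 20 intervals with the highest shares. Of 44 intervals assigned to vomeronasal (pheromone) receptor genes, 38 (86.4%) were GFI1-only, in 34 of 40 genes. Of 59 intervals of olfactory receptor genes, 47 (79.7%) were GFI1-only, in 44 of 55 genes. The GFI1B list held 8 vomeronasal and 27 olfactory receptor genes. Of those, 3 and 16 had a GFI1B-only interval (37.5% and 59.3% of genes), beside 3005 of the 4346 protein-coding genes of that list. The GFI1-only intervals lay a median of 212 kb (vomeronasal) and 253 kb (olfactory) from GFI1B, with ranges of 14.0 to 1208.5 kb and 22.7 to 1029.9 kb. They were spread over 8 and 10 chromosomes, so no single cluster supplied all of them, but unevenly. Chromosomes 7 and 6 held 12 and 11 of the 38 vomeronasal ones, and chromosomes 2 and 7 held 10 and 9 of the 47 olfactory ones.

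The strongest vomeronasal receptor gene was Vmn2r80 at 171 reads per kb over 2 intervals of 801 and 851 bp on chromosome 10. Next were Vmn1r202 at 158, the pseudogene Vmn2r-ps2 at 117 and Vmn1r83 at 103. The strongest olfactory receptor genes were the pseudogene Olfr1374-ps1 at 169 reads per kb, Olfr993 at 164, Olfr687 at 161 over 2 intervals, and Olfr472 at 128. The median over olfactory receptor genes with a member was 71.9 reads per kb and over vomeronasal receptor genes 52.6, beside 48.7 for all genes listed for GFI1. Receptor genes of both families arose by repeated duplication, and the limit on copies given for pseudogenes holds for them too.

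Immunoglobulin variable genes, the segments that B cells join to build antibodies, had a GFI1-only interval in 12 of 12 listed genes, beside 64.7% of all genes listed for GFI1. The 12 were made up of 9 kappa and 3 heavy chain genes, and these groups were set apart after their values had been seen. At the kappa locus on chromosome 6 the strongest were Igkv4-59 at 152 reads per kb, 988 kb from the nearest GFI1B interval, Igkv9-129 at 149 and Igkv5-39 at 122. Igkv9-123 at 107 reads per kb also held an interval that overlapped GFI1B. The heavy chain genes were listed at 34.5 to 72.2 reads per kb. The GFI1B list held 3 immunoglobulin variable genes.

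The 3 families of structural and guide RNAs had interval shares above the 55.7% of all GFI1 intervals, by margins that were not tested. By genes they lay nearer to the list, in which 64.7% of all genes had a GFI1-only interval. That share was 69.1% for small nucleolar, 64.4% for U-type, and 71.0% for 5S and 7SK RNA genes. Small nucleolar RNA genes, whose products guide RNA modification, had 56 GFI1-only intervals of 86 (65.1%). Their strongest genes were SNORA40 at 153 reads per kb and a SNORA17 copy at 147. Spliceosomal U-type RNA genes had 69 of 114 (60.5%), led by U6 copies at 155 reads per kb. The 5S ribosomal RNA and 7SK genes had 24 of 35 (68.6%), among them a 5S_rRNA copy at 132 reads per kb. Ribosomal protein genes and their copies had 16 of 32, with Rpl23a-ps6 highest at 62.4. Solute carriers (membrane transporters) had 62 of 99 (62.6%) and zinc finger genes with Zfp symbols 48 of 90 (53.3%).

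**Figure D3:**
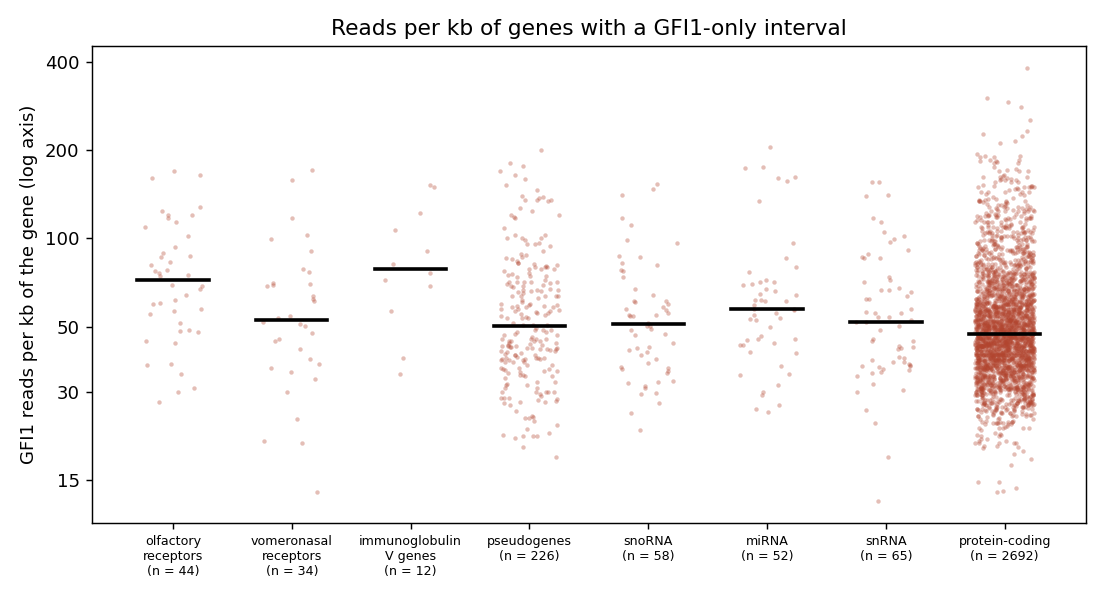
GFI1 reads per kb (vertical log axis) of each gene with a GFI1-only interval, by family or biotype, 1 point per gene and a black line at the group's median. Receptor pseudogenes also appear under pseudogenes, and receptor genes also under protein-coding. The ranges overlap in all groups, and the olfactory receptor median of 71.9 stands above the vomeronasal one of 52.6.

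Genes were grouped into 13 lists, 12 of blood, vessel, heart, signalling, cell cycle and chromatin genes and 1 of long neuronal genes. The GFI1 list held 214 of their 491 genes with 470 intervals, of which 206 (43.8%) were GFI1-only, beside 55.7% of all GFI1 intervals. Without the neuronal list it was 168 of 411 (40.9%). The lists share genes, so their counts are not separate from each other.

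Endothelial identity genes had the lowest share together with 2 other lists. Of their 49 GFI1 intervals, 14 (28.6%) were GFI1-only and 29 (59.2%) overlapped GFI1B. Those 14 lay in 10 of the 23 listed genes, at a median of 11.5 kb from GFI1B. Eng encodes endoglin, a co-receptor for TGF-beta, and was listed at 88.6 reads per kb, with 1 interval of 801 bp 12.5 kb from GFI1B and another that overlapped it. The apelin receptor gene Aplnr (50.6 reads per kb) had 1 GFI1-only interval of 3, 9.10 kb from GFI1B. Fli1 and Erg, ETS factors of endothelium and blood, had 2 of 5 and 1 of 4. In 3 endothelial genes every GFI1 interval was GFI1-only and GFI1B was not listed: Ramp2, a co-receptor of adrenomedullin (68.0 reads per kb, 18.3 kb away), Lyve1, a hyaluronan receptor of lymphatic and early endothelium (66.0, 151 kb away), and the ETS factor Ets2 (42.6, 120 kb away).

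Arterial, venous and Notch genes had 6 GFI1-only intervals of 21 (28.6%). Prox1 (48.7 reads per kb, 221 kb from GFI1B) and Efnb2, the arterial ligand ephrin-B2 (34.6, 82.2 kb away), were not in the GFI1B list. Notch2, Maml3, Nrp1 and Rbpj each held 1 GFI1-only interval beside intervals that overlapped GFI1B. Blood surface and lineage genes had 4 of 14 (28.6%). These were in Itgb3, the platelet integrin beta 3 (72.1 reads per kb), in Spn, which encodes CD43 (41.4), and in Cd44 and the kinase gene Lyn. Cardiac and smooth muscle genes had 8 of 26 (30.8%), with Mef2a at 120 reads per kb over 2 GFI1-only intervals.

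Haematopoietic transcription factor genes had 23 GFI1-only intervals of 59 (39.0%), in 11 of 16 listed genes. Of those 11, the 1 absent from the GFI1B list was Cbfb, the partner of RUNX proteins, with 30.9 reads per kb over 1 GFI1-only interval. Tcf12, an E protein, held 3 intervals (36.1 reads per kb), all GFI1-only, and lay 19.4 kb from GFI1B intervals of its own. Tcf4, another E protein, had 4 of 5 and Mecom, a stem cell factor, 3 of 5. Meis1, a homeobox factor of blood stem cells, had 1 of 3, and Bach2, a repressor in lymphocytes, had 2 of 11.

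The LSD1, CoREST and corepressor genes had 9 GFI1-only intervals of 22 (40.9%), in 7 of 10 listed genes. Rcor1 held 2 intervals of 1451 and 1751 bp, at chr12:112300288-112301738 and chr12:112314388-112316138 (mm9), 139 and 129 kb from GFI1B, with 46.2 reads per kb. Phf21a, the BHC80 subunit of the LSD1 complex, had 41.3 reads per kb and lay 74.6 kb away. The histone deacetylase gene Hdac5 had 40.5 and lay 317 kb away. Zmym2, another protein found with LSD1, had 26.5 and lay 375 kb away. These 4 genes were not in the GFI1B list. Kdm1a itself, the LSD1 gene, had 39.2 reads per kb over 4 intervals: 2 overlapped GFI1B and 2 were GFI1-only, 7.97 and 18.2 kb away. Tle1, a Groucho corepressor, had 1 interval 49.0 kb from its GFI1B interval. These 6 genes were all below the median of 48.7 reads per kb of genes listed for GFI1.

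TGF-beta and BMP genes had 13 of 30 (43.3%). The signal transducers Smad2 (75.7 reads per kb over 2 intervals) and Smad3 (59.9, 201 kb from GFI1B) and the ligand Bmp4 (170 kb away) were not in the GFI1B list. Ltbp1, Tgfb2 and Bmpr2 were marked by both proteins at separate places. Receptor kinase ligands, receptors and feedback genes had 19 of 49 (38.8%). Their feedback inhibitors Spry4 (69.1 reads per kb) and Dusp4 (55.6) were listed for GFI1 alone. Wnt genes had 14 of 27 (51.9%), near the share of all GFI1 intervals, with the co-receptor Lrp5 (74.9) and the beta-catenin regulator Apc (71.4) absent from the GFI1B list. Adhesion, matrix and EMT genes had 26 of 63 (41.3%). Among them were the EMT transcription factor gene Zeb1 (151 reads per kb, on an interval assigned to 2 genes) and the integrin gene Itgb1 (64.6). Cell cycle genes had 13 of 31 (41.9%), including the cyclin-dependent kinase inhibitor Cdkn2b (57.4).

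Chromatin modifier genes had 25 GFI1-only intervals of 43 (58.1%), near the 55.7% of all GFI1 intervals, with Crebbp at 126 reads per kb, Smarca4 at 73.0, Arid1a at 66.9 and Kdm2b at 64.1, all of them in the GFI1B list too. Long neuronal and synaptic genes had 38 of 59 (64.4%), at a median of 442 kb from GFI1B. Grik2, a glutamate receptor subunit, had 105 reads per kb over 1 interval 1357.3 kb away. Ntm, a neural adhesion protein, had 89.3 over 2 intervals 1234.7 and 1479.6 kb away. Dlg2, a synaptic scaffold, had 88.2 over 2 intervals, and its own GFI1B intervals were 122 kb away. The median width of all GFI1 intervals in the neuronal list was 951 bp, against 1401 bp in the endothelial list, and the part of width in the difference between these shares was not tested.

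**Figure D4:**
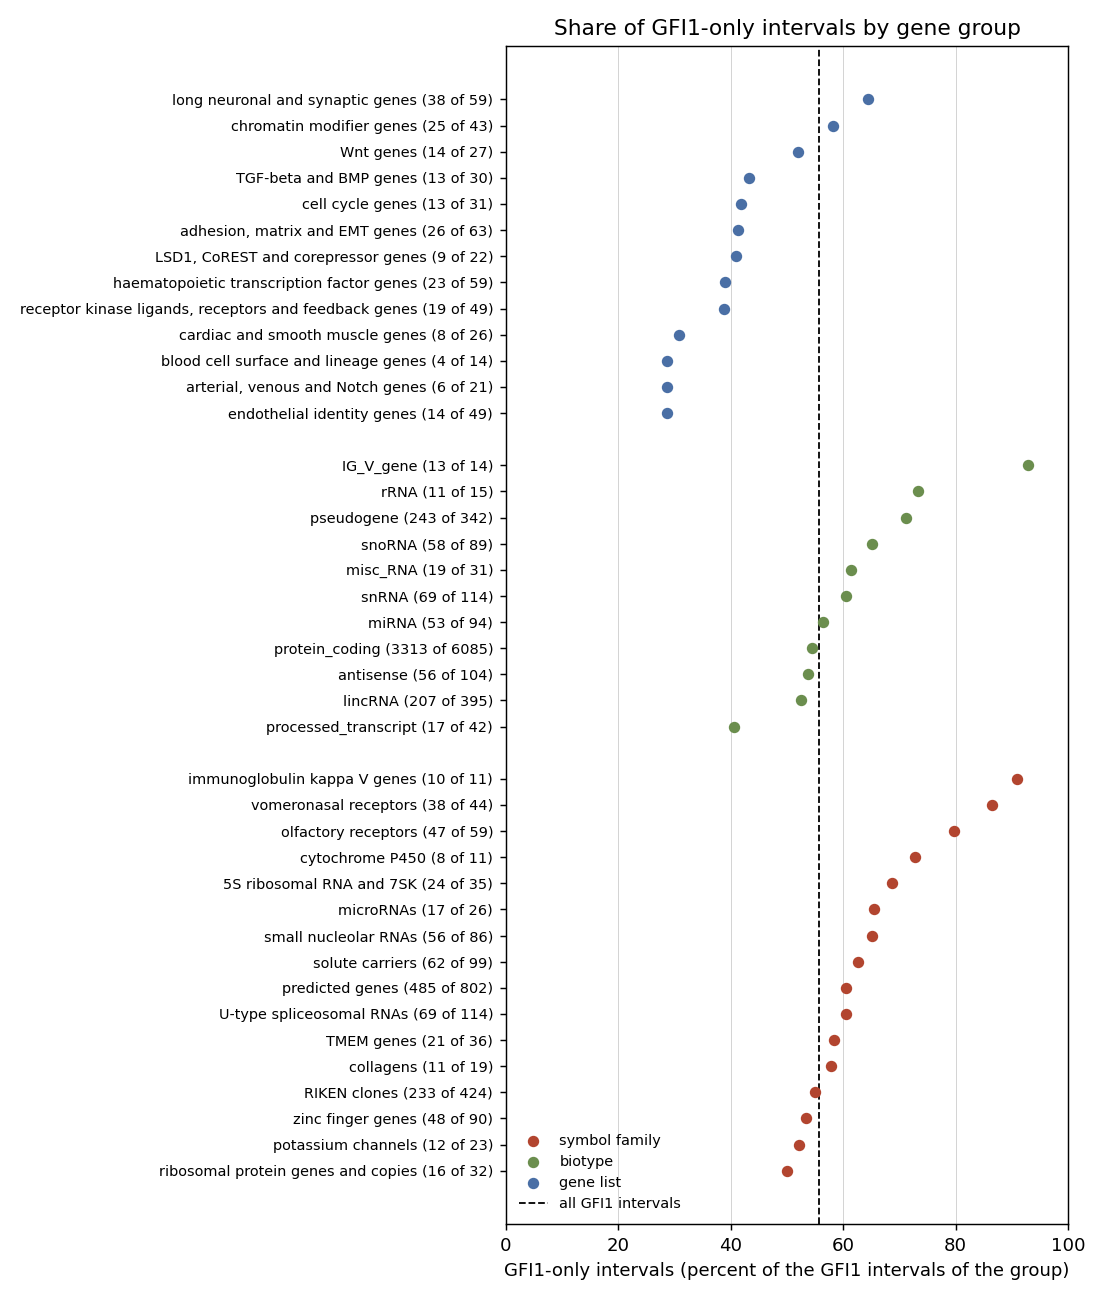
Share of GFI1-only intervals (horizontal axis, percent) among the GFI1 intervals of each symbol family (red), biotype (green) and gene list (blue) with at least 10 intervals, with the counts beside each name. The dashed line marks 55.7%, the share over all GFI1 intervals. Immunoglobulin, vomeronasal and olfactory genes stand to its right, and the endothelial, arterial and blood surface lists at 28.6% to its left.

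Of the 2738 genes whose GFI1 intervals were all GFI1-only, 510 were in the GFI1B list, and 439 of these were protein-coding. Here both proteins were listed for the same gene at separate places. The shortest distance between a gene's own GFI1 and GFI1B intervals had a median of 24.7 kb, with quartiles of 12.4 and 51.4 kb, and exceeded 100 kb in 52 genes. Mef2a, a muscle transcription factor, had GFI1 intervals 69.0 kb from its GFI1B interval. Pard3, a cell polarity scaffold, had them 339 kb apart. Smarca4, the BRG1 chromatin remodeller, had 67.3 kb between them, Tgfb2 33.2 kb and Bmpr2 11.8 kb. The wide interval at Cdc25a lay 22.4 kb from the one listed for GFI1B.

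Chromosome X held 268 members of its 396 GFI1 intervals, 67.7% (95% Clopper-Pearson interval 62.8 to 72.3, for counting error only), the highest share of any chromosome with more than 1 interval. On the autosomes together the share was 55.0% (3726 of 6769), with chromosome 14 lowest at 45.4% (39.7 to 51.2). For GFI1B the shares were 59.7% on X and 57.6% on the autosomes. With the threshold at 50000 bp, 47.7% of X and 32.1% of autosomal GFI1 intervals stayed GFI1-only, beside 34.2% and 31.7% for GFI1B. The members on X lay a median of 172 kb from GFI1B, against 69.0 kb on the autosomes. They also had fewer reads: single-interval genes with a member had a median of 36.3 reads per kb on X and 47.6 on the autosomes. The introduced fusion genes sit at Hprt, which is itself on X, and the part of that and of the lower reads in the X share was not tested.

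Of the 230 genes with a GFI1-only interval on X, 123 (53.5%) were protein-coding and 74 (32.2%) were pseudogenes. Elsewhere, 152 of 3161 such genes (4.81%) were pseudogenes. X pseudogenes were frequent in both lists as a whole, at 93 of 309 X genes (30.1%) for GFI1 and 47 of 241 (19.5%) for GFI1B. Of the 93, 74 (79.6%) had a GFI1-only interval, and of the 216 other X genes 156 did (72.2%). Away from X these shares were 68.5% for pseudogenes (152 of 222) and 63.9% for other genes (3009 of 4707). The pseudogene share was slightly the higher in both places, but these shares have no counting limits here and the differences were not tested. Of the 74, 69 were predicted genes with Gm symbols, and 72 were not in the GFI1B list. The strongest X genes were Klhl13, an adaptor of a ubiquitin ligase, at 144 reads per kb, Gm14834 at 139, Maob, which encodes monoamine oxidase B, at 124, and Gm9432 at 103. The pseudogene Gm14520, at 99.9, and Phf8, a histone demethylase, at 98.2 followed.

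**Figure D5:**
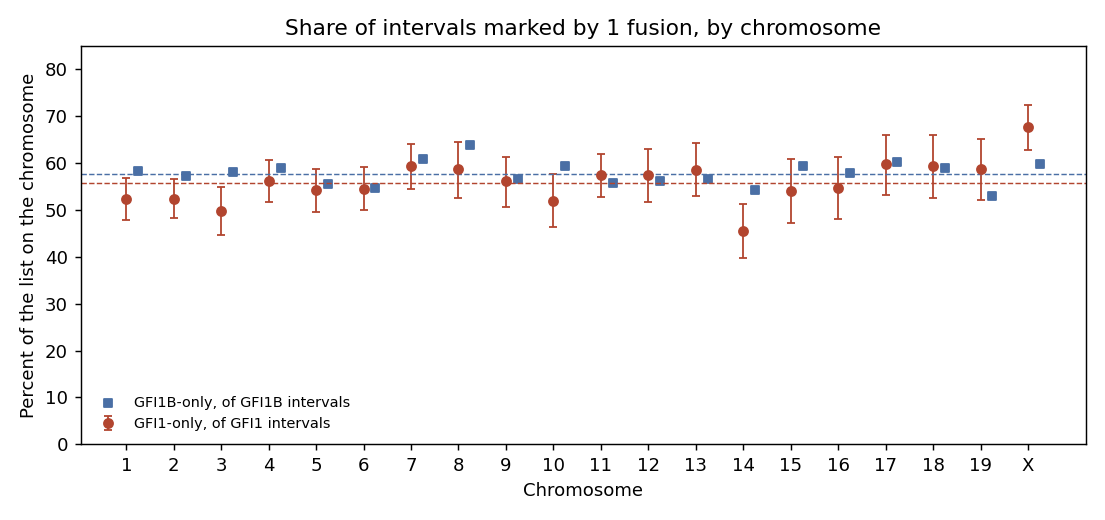
Percent of GFI1 intervals that were GFI1-only (red circles, bars are 95% Clopper-Pearson intervals for counting error) and of GFI1B intervals that were GFI1B-only (blue squares), by chromosome. Dashed lines mark 55.7% and 57.7%, the shares over each list. X is highest for GFI1 at 67.7%, and chromosome 14 lowest at 45.4%.

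Of the 3995 members, 2224 had no other GFI1-only interval within 100 kb and 1771 (44.3%) had one. Of all GFI1 intervals, 66.5% had another GFI1 interval within that distance. Members were sought among members only and all intervals among all 7166, a larger set, so these shares are not like for like. Chained at 100 kb, the members formed 23 runs of 5 or more. The run with the most members, 8 in 304 kb of chromosome 5, passed Sppl3, Mlec, Coq5 and Dynll1 and held 2 GFI1B intervals. On chromosome 9, 7 members lay in 367 kb around Dag1, Rhoa, Qrich1 and Arih2. In 5 of the 23 runs no GFI1B interval lay between the ends. One of these was the run of 5 at Vmn2r80, Vmn2r81 and Vmn2r82, pheromone receptor genes on chromosome 10, over 229 kb. The others were at Nploc4, Slc25a10, Arhgdia and Anapc11, at Cpeb3, March5 and Ide, at Whsc1 and Whsc2, and at Arih1 and Tmem202, each with 5 members.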

How the data were processed

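The authors' deposited lists give 1 row per gene for GFI1 (5238 genes) and for GFI1B (5327 genes), and each was assigned to its fusion from its worksheet name. The authors' read numbers were handled as a deposited score, because control reads may have been taken off. Reads per kb, the deposited signal, was recomputed from the authors' read number and summed interval lengths within 0.01 in every row, so it is not scaled to library size. Per the file headers, the GFI1B list was made with BayesPeak and a method written SS at a threshold of 0.05 after control reads were subtracted. The GFI1 header is cut short at BayesPeak. Its threshold and subtraction, like the aligner, were not given in the sources used here. Coordinates are mm9 per the submitters' processing notes, printed as the lists give them, and whether they count from 0 or 1 is not stated there. Depth is unknown. Intervals are multiples of 50 bp plus 1 base wide.

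Intervals were split, made distinct and compared edge to edge with Python 3.11.15, pandas 2.3.3, numpy 2.4.6 and scipy 1.17.1. The distance step was tested on simulated intervals with known gaps. Symbols of 3015 genes (88.9%) matched a RefSeq table of GRCm38.p6, used for names, sequences and gene lengths only. No test was made, because each group is 1 pooled sample. Named genes were the 10 strongest genes with GFI1-only intervals and no GFI1B entry, those of the 10 most distant and 10 widest intervals, the 5 with the most members, up to 4 per family and list (all where a list had up to 10), 12 microRNA genes, and those of the 3 intervals on each side of the threshold. Zfml, Chn1, Amot, Cbfb, Tcf12, Tcf4, Mecom, the X genes, the genes of the runs and Mir99b, Mir30c-2 and Mir7b were named after their values were seen. The values of 2 genes that the rule names are not reported here. The members, the 13 lists and the 24 families were chosen with earlier results of these data known. The patterns of 4 families were corrected, and both immunoglobulin families added, after the counts were seen. Alternatives were 4 other distances, genes of the GFI1B list left out, stronger genes only, and intervals listed under 1 gene.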

Additional observations from a re-analysis of the deposited data

How the results depend on the processing

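Of the 10 results followed over 7 alternatives, the number of olfactory and vomeronasal receptor genes (78) ranged from 53, with stronger genes only, to 79, which is within the 1.5-fold allowed for a count, while shares and medians were held to 95% counting limits. Leaving out intervals listed under several genes moved no result beyond its limits. The share of GFI1 intervals that were GFI1-only was 60.8% at more than 0 bp, 60.2% at 1000 bp, 51.2% at 10000 bp and 33.0% at 50000 bp, and the share with another member within 100 kb was 47.8%, 47.4%, 41.0% and 33.5%, which follows from the distances themselves. At 50000 bp there were 2363 members, a median of 48.7 reads per kb, 77.8% protein-coding genes, 8.31% pseudogenes and 8.0% of members on X. With genes of the GFI1B list left out, 2419 members remained, 98.6% of the intervals considered, by construction. Protein-coding genes were then 75.1%, pseudogenes 9.39%, snoRNA genes 2.29%, X 8.19% and those within 100 kb of another 37.5%. With stronger genes only (at or above the list's median), there were 1913 members (52.9%), with a median width of 951 bp, 67.9 reads per kb, 77.2% protein-coding genes and 35.4% within 100 kb of another. The X share of members fell to 4.34% there from 6.71%, and the cause was not tested. No paired analysis was possible because each fusion is 1 pooled list. Unknown depth and the unstated end of the GFI1 list limit every count of members.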

Other observations

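Some smaller families were also among the members. Serpin genes, which encode protease inhibitors, had 6 GFI1-only intervals of 8, with Serpinb9c at 128 reads per kb, Serpinb9f at 117, Serpinb3d at 88.6 and Serpinb6a at 74.0. Cytochrome P450 genes had 8 of 11, led by Cyp2c39 at 76.1 and Cyp2c65 at 71.6. Collagen genes had 11 of 19, with the basement membrane gene Col4a5 at 79.0 over 2 intervals and Col8a1 at 63.9. Potassium channel genes had 12 of 23, and Hox genes 4 of 7. Histone genes had 1 of 4 and keratin genes 0 of 2. The shares rest on few intervals and stand beside 55.7% of all GFI1 intervals.

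Protein-coding genes with a GFI1-only interval had a median length of 57.4 kb in the RefSeq table, against 62.7 kb for those with an overlapping interval and 17.1 kb for all 21900 protein-coding genes of the table. Restricted to genes with 1 interval, the medians were 39.5 kb for GFI1-only and 36.8 kb for overlapping intervals. The order of the medians turned, but the quartiles were nearly the same, at 14.5 and 90.9 kb against 15.1 and 89.8 kb.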
